A study of Homo sapiens with 4 samples.

Results

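The interior of human chromosome 7 was examined in Micro-C contact maps of SH-SY5Y cells with and without a TDP-43 knockdown. Its members were the 50 kb bins of chromosome 7 (hg38) whose middle lies from 5 to 154 Mb, each measured by the contacts that both begin and end inside the bin. The rule found 2732 such bins, among 48992 within-bin entries and 89239 bin pairs of the whole table. The short arm held 1039 bins and the long arm 1693, on either side of a gap without listed bins that runs from 57900000 to 60950001. The rule uses position alone and no measured value. At its short-arm end the bin just inside, starting at 5000001, had a log2 fold change of -0.16 and the bin just outside, starting at 4950001, had -0.23. At the long-arm end the bin just inside, starting at 153950001, had 0.10 and the bin just outside, starting at 154000001, had 0.36.

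Micro-C cuts crosslinked chromatin with micrococcal nuclease and joins neighbouring ends, so contacts are resolved to nucleosomes before they are binned. SH-SY5Y is an established human neuroblastoma line. The TDP-43 knockdown group was 2 libraries of cells carrying a stable lentiviral shRNA (labelled shTDP-43). Those cells had 2 weeks of selection with puromycin (2 µg/mL) and a lower maintenance dose of 1 µg/mL afterwards. The control group was 2 libraries titled control, and the labels name an shRNA called shNC beside the knockdown one without tying it to these libraries. All titles end in "merged", with no statement of what was merged, and nothing says that the libraries are separate cultures, so p-values measure the spread between these libraries only. The knockdown acts on RNA and the maps hold none, so neither the knockdown nor the identity of the line could be checked here. Over all listed pairs the knockdown libraries held 115168160 and 142424414 contacts and the control libraries 158400914 and 163147992, at least 83.8% of them within a bin.

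TDP-43, encoded by TARDBP on another chromosome, is a nuclear protein that binds UG-rich RNA and TG-rich DNA, and it is best known for repressing cryptic exons and for its loss from the nucleus in motor neuron disease. Chromosome 7 carries the HOXA cluster of body-axis genes, the Williams syndrome region, the growth factor receptor genes EGFR and MET, and several very long neuronal genes. Neuroblastoma lines often carry extra whole or partial chromosomes, and gain of chromosome 7 is known in SH-SY5Y. Extra copies of a region add chromatin to the cell, so contacts within its bins are counted more often, but contact counts also depend on how open, gene-rich and mappable a bin is.

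Promoters of 5 genes are shown because their bins carry the changes described below. Each runs from 250 bases before to 50 bases after the start site in the RefSeq annotation of GRCh38.p14, in the direction of the gene, with CG dinucleotides in capitals. HDAC9 (chr7:18495499-18495798, plus strand) and CYP3A7 (chr7:99735147-99735446, minus strand) lie in bins where contacts rose in the knockdown. CNTNAP2 (chr7:146116551-146116850, plus strand), CDK6 (chr7:92836524-92836823, minus strand) and BHLHA15 (chr7:98211189-98211488, plus strand) lie in bins where contacts fell.
HDAC9: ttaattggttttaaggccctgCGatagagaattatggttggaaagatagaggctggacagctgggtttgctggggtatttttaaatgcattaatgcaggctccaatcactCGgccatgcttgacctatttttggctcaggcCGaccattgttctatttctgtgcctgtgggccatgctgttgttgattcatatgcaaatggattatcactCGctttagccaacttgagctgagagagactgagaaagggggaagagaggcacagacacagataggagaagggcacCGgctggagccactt
CYP3A7: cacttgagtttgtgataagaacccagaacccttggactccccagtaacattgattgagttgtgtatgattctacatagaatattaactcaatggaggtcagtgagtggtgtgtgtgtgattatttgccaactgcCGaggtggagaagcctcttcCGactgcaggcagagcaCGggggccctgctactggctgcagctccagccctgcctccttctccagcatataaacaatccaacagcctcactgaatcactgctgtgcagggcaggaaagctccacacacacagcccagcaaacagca
CNTNAP2: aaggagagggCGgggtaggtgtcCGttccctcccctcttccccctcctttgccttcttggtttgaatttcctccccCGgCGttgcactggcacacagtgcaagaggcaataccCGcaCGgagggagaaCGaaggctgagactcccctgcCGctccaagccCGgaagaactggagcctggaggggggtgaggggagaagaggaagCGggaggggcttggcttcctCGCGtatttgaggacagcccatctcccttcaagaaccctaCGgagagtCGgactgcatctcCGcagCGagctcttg
CDK6: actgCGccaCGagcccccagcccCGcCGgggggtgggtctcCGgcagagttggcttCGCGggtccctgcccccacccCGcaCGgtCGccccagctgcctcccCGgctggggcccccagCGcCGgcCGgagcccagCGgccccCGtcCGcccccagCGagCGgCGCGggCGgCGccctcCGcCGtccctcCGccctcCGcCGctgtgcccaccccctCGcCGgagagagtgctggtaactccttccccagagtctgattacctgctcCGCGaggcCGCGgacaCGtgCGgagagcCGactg
BHLHA15: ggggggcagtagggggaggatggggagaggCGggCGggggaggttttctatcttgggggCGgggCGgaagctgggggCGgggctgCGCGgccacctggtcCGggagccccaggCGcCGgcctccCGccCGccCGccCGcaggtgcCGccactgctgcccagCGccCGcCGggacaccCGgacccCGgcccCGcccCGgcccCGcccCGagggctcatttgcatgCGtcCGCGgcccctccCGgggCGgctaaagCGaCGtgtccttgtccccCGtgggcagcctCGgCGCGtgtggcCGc
The HDAC9 promoter held 5 CG dinucleotides at 47.3% GC, and the CYP3A7 promoter 3 at 51.0%. The CNTNAP2 promoter held 16 at 61.7%, the CDK6 promoter 37 at 78.0% and the BHLHA15 promoter 36 at 79.3%. Over all matched promoters of the interior GC content ran from 29.0% to 88.7%. The start site shown for HDAC9 lies inside the annotated gene body, which begins at 18086825, so it is not the most upstream start.

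Contacts within bins of chromosome 7 were more frequent than on the other autosomes when all positions or gene-free positions were counted, and close to them over gene-bearing positions as a whole. Levels are given in CPM, edgeR's library-scaled contact count (a share of the library's contacts), after scaling each library by the trimmed mean of M values (TMM). Over all 50 kb positions outside long unlisted runs, the median level of the chromosome 7 interior was 7.78 and 7.81 CPM in the knockdown libraries and 7.64 and 7.40 CPM in the control libraries. Relative to the interiors of the other autosomes this was a ratio of 1.33 and 1.33 in the knockdown libraries and 1.37 and 1.39 in the control libraries. Among the 22 autosomes chromosome 7 ranked 9 by this median in control and 14 by its mean number of protein-coding genes per bin, 0.791. Of the 5 other chromosomes ranked from 11 to 16 by gene content, only chromosome 10 lay above it. Chromosome 3, with 0.814 genes per bin, had medians of 4.54 and 4.49 CPM in the knockdown and 4.26 and 4.06 CPM in control. Chromosome 10, with 0.819, had 8.68 and 8.60 CPM in the knockdown and 8.15 and 7.88 CPM in control. Chromosome 6, the nearest in gene content at 0.771, had 4.49 and 4.45 CPM in the knockdown and 4.25 and 4.12 CPM in control. Chromosome 9 had 6.13 and 6.11 CPM in the knockdown and 5.81 and 5.49 CPM in control, and chromosome 2 had 6.01 and 6.02 CPM in the knockdown and 5.69 and 5.40 CPM in control. The gene-rich chromosomes 19, 22 and 17 had the 3 highest medians, so the level does not isolate copy number.

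**Figure D1:**
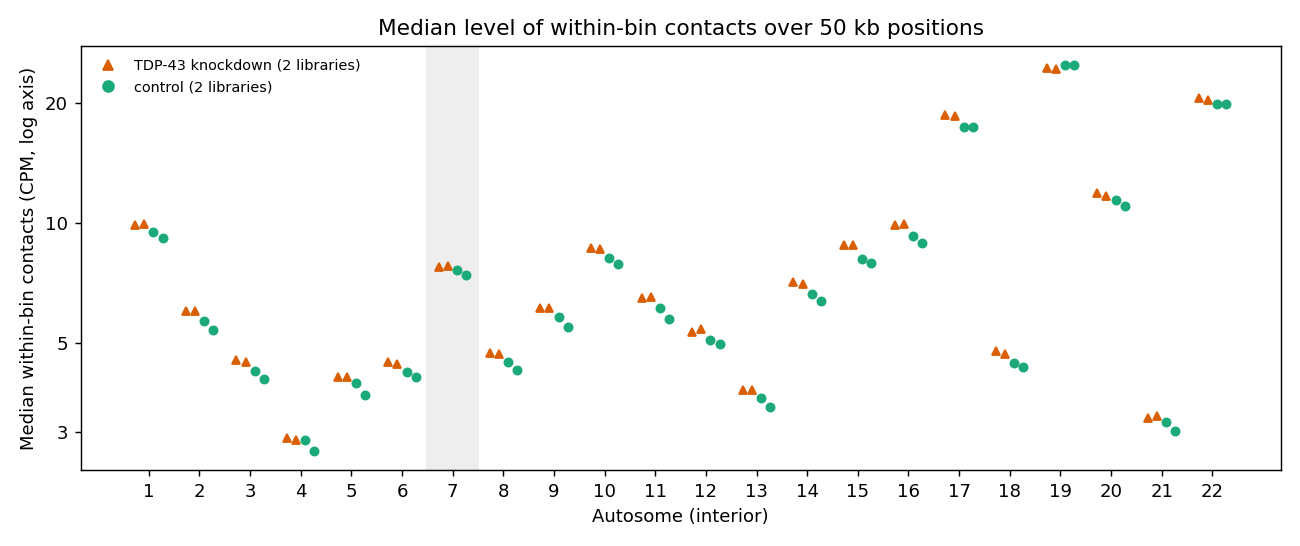
Median within-bin contacts (CPM, log axis) over all 50 kb positions outside long unlisted runs of each autosome interior, with the 2 TDP-43 knockdown libraries as triangles and the 2 control libraries as circles. Chromosome 7 (shaded) lies between 7.40 and 7.81 CPM, rank 9 of 22, below chromosome 10 and above chromosome 3.

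The ratio depended on which positions were counted. The table lists a bin pair only above a mean abundance of -0.01 (log2), which leaves out the weakest bins of each chromosome. Outside long unlisted runs, 95.6% of 2858 positions of chromosome 7 were listed, against 88.0% of 46045 on the other autosomes. Among gene-free positions the shares were 94.1% and 79.6%, and among gene-bearing positions 96.5% and 93.9%. Over listed bins alone the median ratio was therefore smaller, at 1.14 and 1.15 in the knockdown libraries and 1.18 and 1.18 in the control libraries. Over all gene-free positions it was 1.67 and 1.70 in the knockdown libraries and 1.70 and 1.75 in the control libraries. Over all gene-bearing positions it was 1.07 and 1.06 in the knockdown libraries and 1.06 and 1.05 in the control libraries, and over listed gene-bearing bins the control mean was 0.992. Split by gene number, the listed bins gave 1.39 in the knockdown and 1.44 in control with no gene. With 1 to 2 genes the ratio was 1.05 in the knockdown and 1.03 in control. With 3 to 5 genes the ratio was 1.31 in the knockdown and 1.34 in control (76 bins of chromosome 7), and with 6 or more genes 1.84 in the knockdown and 1.91 in control (5 bins). A region present in 3 copies against 2 would have a ratio of 1.5 if within-bin contacts followed copy number alone. Gene-free positions lay above that value when unlisted positions were counted, and below it over listed bins alone. Of the listed classes only the bins with 6 or more genes lay above it. Copy number was not measured separately here. The part of a gain in these ratios was not tested.

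The short arm had the higher ratio. Over all positions it was 1.48 and 1.47 in the knockdown libraries and 1.51 and 1.55 in the control libraries, against 1.25 and 1.24 in the knockdown and 1.29 and 1.28 in control on the long arm. In each of the 4 libraries the short arm lay above the long arm. Listed positions made up 98.2% of the short arm and 94.1% of the long arm. Without chromosomes 1, 2 and 17, which hold other regions known to be gained in this line, the ratio over all positions of chromosome 7 was 1.46 and 1.47 in the knockdown libraries and 1.52 and 1.53 in the control libraries. Contacts between adjoining bins had a mean ratio of 1.06 in the knockdown and 1.01 in control, counted over listed pairs only. Their listing was uneven, at 39.9% of positions on chromosome 7 and 33.9% elsewhere. Most positions had no listed pair, so this ratio cannot be set against those over all positions.

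The chromosome took a slightly smaller share of contacts in the knockdown, and the long arm differed more than the short arm. Of all within-bin contacts in autosomal interiors, chromosome 7 held 7.432% and 7.435% in the knockdown libraries and 7.586% and 7.571% in the control libraries. The groups did not overlap, and the difference was -0.145 percentage points. An exact permutation test over the 4 libraries (two-sided) gave p = 0.333, the smallest that 2 against 2 can give, so the design cannot pass a threshold of 0.05. Each arm's share was taken of that arm plus the other autosomes, leaving out the other arm. The arm shares therefore do not add up to that of the chromosome. On that basis the long arm held 4.900% and 4.906% in the knockdown and 5.054% and 5.044% in control. The short arm held 2.796% and 2.793% in the knockdown and 2.805% and 2.798% in control. In gene-free bins the share of chromosome 7 was 7.700% and 7.704% in the knockdown and 7.704% and 7.695% in control. There the groups overlapped, with a difference of 0.00289 points in the other direction (exact permutation p = 0.667). 

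Contacts within chromosome 7 bins changed in both directions in the knockdown, at shares close to those elsewhere. With edgeR's quasi-likelihood test and TMM scaling, at an adjusted p of 0.05 over all pairs, 246 bins rose (9.00%) and 353 fell (12.9%). On the interiors of the other autosomes 7.72% rose and 11.3% fell, and over all within-bin entries 7.40% rose and 14.3% fell. In 883 of 2732 bins of chromosome 7 the knockdown libraries both lay above the control libraries and in 762 both lay below. On the other autosomes these were 13277 and 10446 of 40525 bins (32.8% and 25.8%), which are similar shares. The log2 fold changes ran from -0.85 to 0.83 with a median of 0.026, and the median elsewhere was 0.035. The difference between chromosome 7 and the rest was not tested.

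The direction of these calls followed the level of the bin. With the bins split into 5 equal classes of control level, low to high, 36, 50, 73, 81 and 6 bins rose with TMM scaling and 1, 6, 26, 40 and 280 fell. The control level is also the denominator of the fold change. A loess fit per library, which takes out how the fold change drifts with contact abundance over the whole table, changed the split. Then 300 bins of chromosome 7 rose (11.0%) and 100 fell (3.66%) with the trend removed, against 8.32% and 3.10% on the other autosomes and 7.89% and 5.12% of all within-bin entries. The share of called bins that rose was thus 75.0% with the trend removed and 41.1% with TMM scaling. In the same classes 11, 16, 47, 100 and 126 bins then rose and 4, 13, 29, 26 and 28 fell. Calls in one direction under both scalings numbered 158 higher and 87 lower of 2732 bins, against 1957 higher and 1131 lower of 40525 on the other autosomes. Fold changes of the authors' deposited table follow the version with the trend removed (r = 0.9999972 over pairs), and both are given below for that reason.

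**Figure D2:**
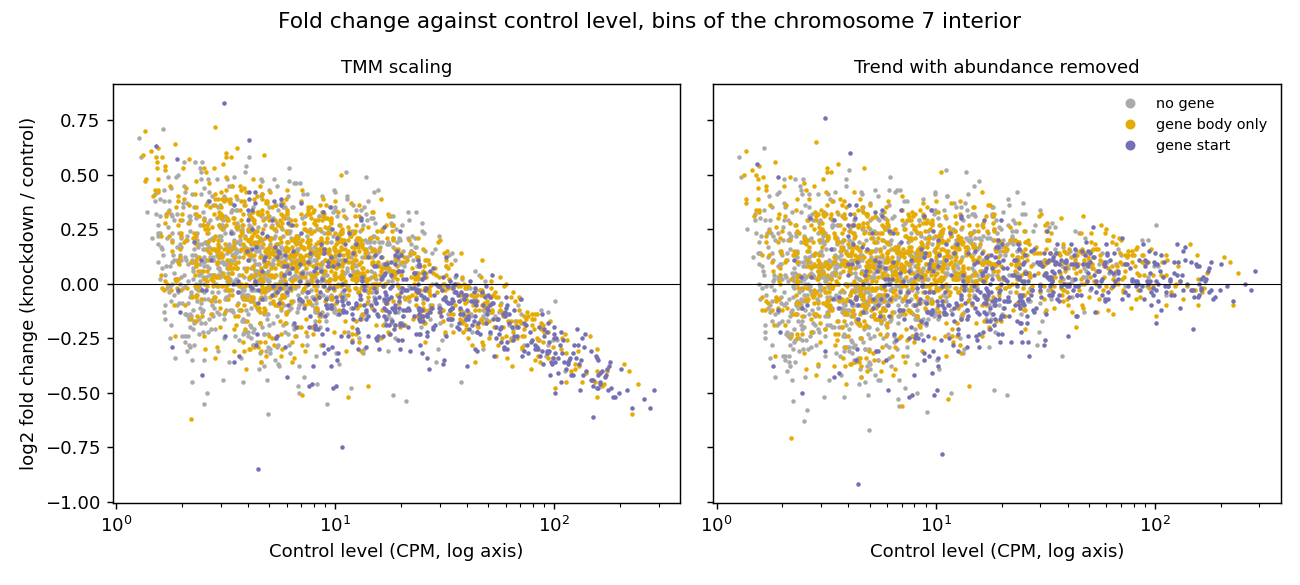
Log2 fold change (knockdown over control) of each of the 2732 bins against its control level in CPM (log axis), with TMM scaling on the left and with the abundance trend removed on the right. Colours mark bins with no gene, with gene body only and with a gene start. With TMM scaling the highest of 5 level classes held 280 bins that fell and 6 that rose, and without the trend 28 fell and 126 rose.

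Along both arms the calls lay in blocks. The 5 Mb window with the largest share of higher bins was at 65 to 70 Mb, on the long arm near the centromere. There 44 of 95 bins rose and 1 fell with the trend removed (edgeR), and 36 rose and 15 fell with TMM scaling. The median level of that window was 19.1 and 18.4 CPM in the knockdown libraries and 16.6 and 15.4 CPM in the control libraries, and its median log2 fold change was 0.20 with the trend removed and 0.16 with TMM scaling. The window holds few genes, 0.421 per bin, among them the start of AUTS2. Within it the gene-free bin at 68400001 to 68450000 had 16.7 and 15.4 CPM in the knockdown libraries, against 11.5 and 11.0 CPM in the control libraries (log2 fold change 0.51, SE 0.08, edgeR adjusted p = 1.2e-07; 0.52 with the trend removed).

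Similar blocks stood at 25 to 30 Mb, which holds the HOXA cluster, CREB5 and their neighbours, and at 130 to 135 Mb, which holds PLXNA4 and EXOC4. In the fit without the trend 35 of 100 bins rose and 0 fell in the block at 25 Mb, and 34 of 100 rose and 0 fell in the block at 130 Mb. With TMM scaling 32 rose and 3 fell in the block at 25 Mb, and 20 rose and 5 fell in the block at 130 Mb. The 4 bins of the HOXA cluster and EVX1 were not among those that rose. Of them 3 fell with TMM scaling and 0 passed with the trend removed. The median level at 25 to 30 Mb was 16.2 and 16.1 CPM in the knockdown libraries and 14.6 and 13.8 CPM in the control libraries. At 130 to 135 Mb it was 16.7 and 16.6 CPM in the knockdown and 15.2 and 15.2 CPM in control. CREB5 encodes a cyclic AMP response element binding protein, and its bin at 28700001 to 28750000 had 14.8 and 15.3 CPM in the knockdown libraries and 9.89 and 11.4 CPM in the control libraries (log2 fold change 0.50, SE 0.08, edgeR adjusted p = 4.75e-07; 0.51 with the trend removed). That bin and the one at 68 Mb were chosen after their values were seen.

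Lower contacts lay on both sides of the centromere. Once the trend was removed, 13 of 34 bins at 60 to 65 Mb fell and 1 rose, and 10 of 52 bins at 55 to 60 Mb fell and 3 rose. With TMM scaling the counts were 11 lower and 2 higher at 60 to 65 Mb, and 16 lower and 1 higher at 55 to 60 Mb. The median log2 fold change at 60 to 65 Mb was -0.25 with the trend removed and -0.22 with TMM scaling. Chromosome 7 carries recent duplications beside its centromere, whose near-identical copies make the counts of such bins uncertain. Other lower windows appeared with TMM scaling alone. At 100 to 105 Mb, a gene-rich stretch with 1.59 genes per bin, 38 bins fell and 7 rose with TMM scaling, and 2 fell and 16 rose with the trend removed. At 150 to 154 Mb 28 of 80 bins fell and 0 rose with TMM scaling, and 2 fell and 8 rose with the trend removed. Among windows of 50 bins or more, medians with the trend removed ran from -0.06 to 0.20 over 29 windows of chromosome 7. Over 446 windows of the other autosomes they ran from -0.15 to 0.22, so higher blocks of this size were not particular to chromosome 7. The window at 60 to 65 Mb, with 34 bins, was left out of this comparison. Its median of -0.25 was not set against windows elsewhere.

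**Figure D3:**
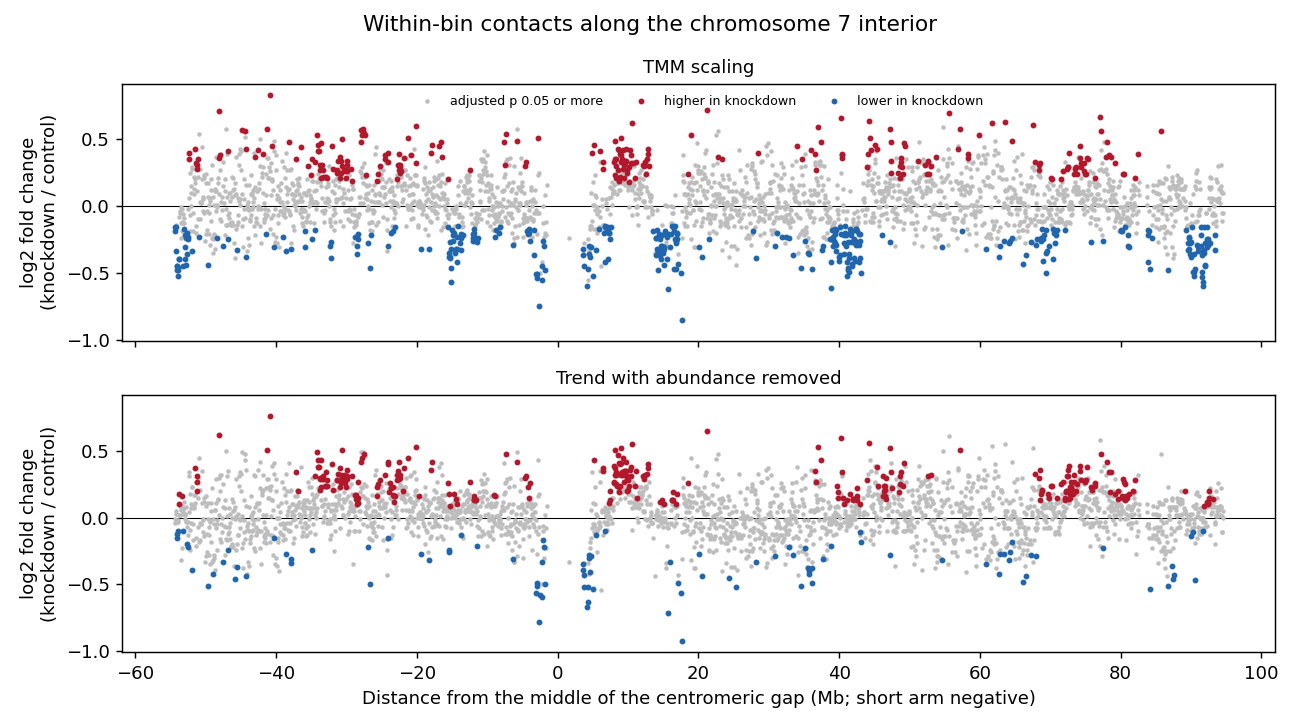
Log2 fold change (knockdown over control) of each bin against its distance in Mb from the middle of the centromeric gap, short arm negative, with TMM scaling above and with the abundance trend removed below. Red points rose and blue points fell at an adjusted p of 0.05; lower points flank the centromere in both panels, while the blue block near the long-arm end is mostly gone with the trend removed.

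**Figure D4:**
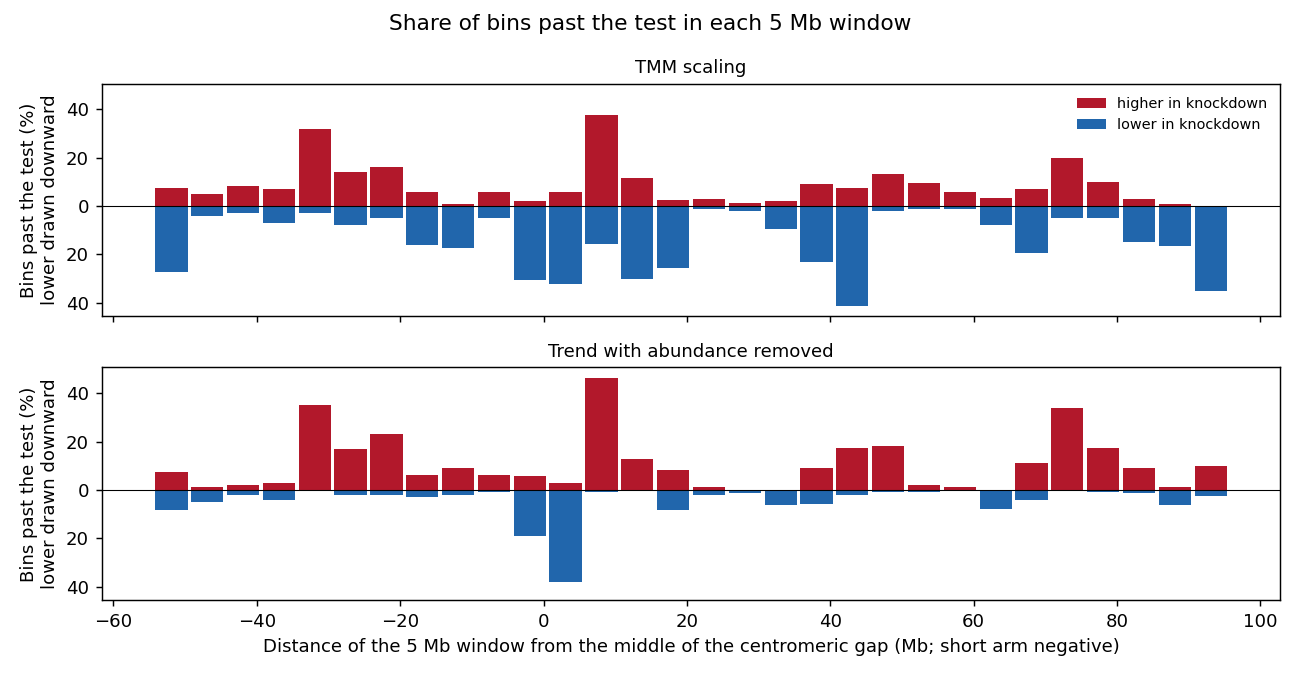
Share of bins past the test in each 5 Mb window (%, higher drawn upward and lower downward) against distance from the centromeric gap, with TMM scaling above and with the abundance trend removed below. The window at 65 to 70 Mb reaches 46.3% higher with the trend removed, and the window at 60 to 65 Mb reaches 38.2% lower.

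Among the 10 largest increases with TMM scaling, most were single bins at low contact levels. The dimmest of them lie near the listing threshold and are in the table partly through their knockdown counts. HDAC9 encodes a class IIa histone deacetylase that acts in muscle and neurons. Its bin at 18450001 to 18500000, which holds the promoter shown above, had 599 and 903 contacts in the knockdown libraries and 522 and 434 in the control libraries. That is 5.51 ± 0.795 CPM in the knockdown against 3.12 ± 0.421 CPM in control (SD, n = 2 each), and the libraries did not overlap. This was a log2 fold change of 0.83 (SE 0.15, edgeR adjusted p = 2e-06), or 0.76 with the trend removed. CD36, a scavenger receptor that takes up fatty acids, had 4.88 and 4.43 CPM in its bin at 80650001 to 80700000 in the knockdown, against 2.92 and 2.74 CPM in control. Its log2 fold change was 0.72 (edgeR adjusted p = 0.000164) and 0.65 with the trend removed, but without knockdown library 1 it no longer passed (adjusted p = 0.0506). AUTS2, a nuclear regulator of neuronal development linked to autism, had 5.12 and 5.85 CPM at 69950001 to 70000000 in the knockdown and 3.96 and 3.20 CPM in control. Its log2 fold change was 0.62 (edgeR adjusted p = 0.000387) and 0.55 with the trend removed, and without knockdown library 2 it no longer passed (adjusted p = 0.0916).

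A stretch of 4 bins at 99700001 to 99900000 covers the CYP3A cluster of drug-metabolising cytochrome P450 enzymes and ZSCAN25, a zinc finger gene. Its leading bin, at 99700001 to 99750000, holds the CYP3A7 promoter shown above and had 740 and 993 contacts in the knockdown libraries, against 662 and 581 in the control libraries. The levels were 6.40 ± 0.399 CPM in the knockdown and 4.05 ± 0.393 CPM in control (SD, n = 2 each), without overlap. Their log2 fold change was 0.66 (SE 0.13, edgeR adjusted p = 2.64e-05) and 0.60 with the trend removed, and 2 of the 4 bins passed with the trend removed. This call and that of HDAC9 were kept in every fit with a library left out, with DESeq2 and with the trend removed.

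The other 6 increases lost their calls when particular libraries were left out. RELN encodes reelin, a secreted protein that guides migrating neurons. Its bin at 103650001 to 103700000 had 3.07 and 2.70 CPM in the knockdown and 1.72 and 1.98 CPM in control, a log2 fold change of 0.64 (edgeR adjusted p = 0.0139) that passed with the trend removed. RELN no longer passed without knockdown library 1 (adjusted p = 0.273), knockdown library 2 (0.0719) or control library 1 (0.0661). A gene-free stretch at 11200001 to 11300000 had a log2 fold change of 0.71 (edgeR adjusted p = 0.008), and its call was lost without knockdown library 1 (0.19) or 2 (0.0621). The other 4 regions lost their calls with the trend removed and without knockdown library 1. They were MDFIC, an inhibitor of myogenic transcription factors (log2 fold change 0.70), a gene-free bin at 136450001 to 136500000 (0.67), TAS2R16, a bitter taste receptor gene (0.63), and CPED1 (0.62). Their edgeR adjusted p-values lay from 0.018 to 0.0327 with all libraries, from 0.0611 to 0.0924 with the trend removed and from 0.0812 to 0.392 without knockdown library 1. All but MDFIC also missed the threshold without knockdown library 2 (adjusted p from 0.313 to 0.35). Without control library 1 it was missed by MDFIC (0.0859), TAS2R16 (0.0558) and CPED1 (0.394), and without control library 2 by the gene-free bin (0.0708). With DESeq2 the gene-free bin (adjusted p = 0.0636) and CPED1 (0.124) missed it too. The log2 fold change of CPED1 was 0.30 without control library 1 and 1.03 without control library 2.

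The 5 dimmest bins of the chromosome all had positive log2 fold changes, from 0.47 to 0.70, and their libraries did not overlap. MDFIC and the bin at 136450001 are among them. FOXP2, a transcription factor gene linked to speech, had 1.98 and 2.01 CPM at 114100001 to 114150000 in the knockdown and 1.54 and 1.11 CPM in control, which did not pass (log2 fold change 0.59, edgeR adjusted p = 0.0566). Another FOXP2 bin, at 114050001, fell under both scalings. Its log2 fold change was -0.31 (edgeR adjusted p = 0.00532) and -0.32 with the trend removed (adjusted p = 0.011). The other 2 of the 5 dimmest bins, a gene-free bin at 53650001 and a bin of ZNF804B, did not pass either. The 5 bins were chosen for a low control level, which is the denominator of the fold change. A bin is listed only above a mean abundance over all libraries. Bins this dim in control therefore tend to be listed only where the knockdown is higher. Their shared sign and the separation of their libraries cannot be read as a result for that reason.

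The largest decreases fell into 2 kinds. Duplicated or pericentromeric bins were lower under both scalings, and bins of very high contact level were lower mostly with TMM scaling. SPDYE17 belongs to the Speedy family of cell cycle regulators, whose near-identical copies are spread over the chromosome. Its leading bin at 77000001 to 77050000 had 270 and 398 contacts in the knockdown libraries and 729 and 632 in the control libraries. The levels were 2.45 ± 0.315 CPM in the knockdown and 4.43 ± 0.469 CPM in control (SD, n = 2 each), with no overlap. This was a log2 fold change of -0.85 (SE 0.16, edgeR adjusted p = 1.57e-05) and -0.92 with the trend removed. Reads may be shared among the copies, so this value is uncertain. The same limit applies to GTF2IRD2B, CASTOR2 and RCC1L at 74950001 to 75150000, whose leading bin had a log2 fold change of -0.62 (edgeR adjusted p = 0.0409). It no longer passed without knockdown library 1 (adjusted p = 0.327), knockdown library 2 (0.156) or control library 2 (0.212), and with DESeq2 (0.0635).

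Beside the centromere, the bin at 56800001 to 56850000 holds LOC124901638, LOC124901637 and LOC124901639 and had 763 and 946 contacts in the knockdown libraries, against 1377 and 1901 in the control libraries. Its level was 6.33 ± 0.0411 CPM in the knockdown and 10.7 ± 2.36 CPM in control (SD, n = 2 each), with a log2 fold change of -0.75 (SE 0.10, edgeR adjusted p = 1.51e-09) and -0.78 with the trend removed. Gene-free regions at 57150001 to 57250000, 56450001 to 56550000 and 63550001 to 63600000 had log2 fold changes of -0.55, -0.54 and -0.60 in their leading bins, and -0.59, -0.51 and -0.67 with the trend removed. All 4 of these regions were kept in every fit with a library left out.

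At the other extreme lay the brightest bins of the chromosome. AGAP3, WDR86, SMARCD3 and 24 other genes share a run of 15 lower bins at 150750001 to 151500000. SMARCD3 encodes a subunit of the BAF chromatin remodelling complex, and AGAP3 a GTPase-activating protein of the synapse. The leading bin, at 151100001 to 151150000 over AGAP3 and GBX1, had 18146 and 22422 contacts in the knockdown libraries and 33571 and 36278 in the control libraries. Its level was 150 ± 0.616 CPM in the knockdown and 227 ± 11.4 CPM in control (SD, n = 2 each), a log2 fold change of -0.60 (SE 0.06, edgeR adjusted p = 1.64e-17). After removal of the trend it was -0.10, and 1 of the 15 bins passed. The bin with the highest control level on the chromosome lies in the same run. It covers KCNH2, a cardiac potassium channel gene, and NOS3, the endothelial nitric oxide synthase gene, and had 199 and 208 CPM in the knockdown, against 273 and 299 CPM in control. Its log2 fold change was -0.49 with TMM scaling but 0.06 once the trend was removed (edgeR adjusted p = 0.129).

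ZNF862, KRABD3 and ACTR3C share 4 lower bins at 149700001 to 149900000. The leading bin, over ZNF862, had a log2 fold change of -0.52, or -0.07 with the trend removed (edgeR adjusted p = 0.129), and 1 of the 4 bins, at 149700001 with the KRABD3 start, still fell with the trend removed. LMTK2, BAIAP2L1, BRI3 and their neighbours at 98150001 to 98350000 differed from it. The leading bin at 98200001 to 98250000 covers TECPR1, an autophagy gene, LMTK2, a membrane kinase gene, and BHLHA15, the secretory cell transcription factor gene whose promoter is shown above. It had 98.6 and 97.2 CPM in the knockdown and 145 and 154 CPM in control. This change, a log2 fold change of -0.61 (SE 0.06, edgeR adjusted p = 1.76e-18), stayed past the test at -0.21 with the trend removed (adjusted p = 1.15e-07).

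The HOXA, Williams region, zinc finger and growth factor groups had more than 50% of their genes in lower bins with TMM scaling, and the other 5 groups did not. A gene is counted here as higher or lower when its body overlaps bins that rose or fell, and not both. By that count 48.5% of the 829 genes of the interior were lower and 9.53% higher with TMM scaling (edgeR), and 11.9% were lower and 17.1% higher with the trend removed. The share also depends on gene length, from 55.0% lower among genes within 1 bin to 28.7% among genes over 5 or more bins with TMM scaling. Each group is to be read against these shares, and none was tested as a group. Of the 12 HOXA and EVX1 genes, which lie in 4 bins, 11 overlapped a lower bin with TMM scaling (91.7%) and 0 a higher one. The bin of HOXA3, HOXA7, HOXA9, HOXA10, HOXA11 and HOXA13 at 27150001 to 27200000 had 131 and 136 CPM in the knockdown libraries, against 165 and 186 CPM in the control libraries. Its log2 fold change was -0.39 (SE 0.06, edgeR adjusted p = 6.78e-09), and with the trend removed it was 0.06 (adjusted p = 0.18). None of the 12 genes passed with the trend removed. The median log2 fold change over their bins was -0.29 with TMM scaling, where all bins of the chromosome had 0.026, and 0.02 with the trend removed, where all bins had 0.046. Neighbouring genes share bins, so these counts are not independent.

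The Williams region at 73.3 Mb and beyond gave the same picture with more genes. Of 27 genes 24 were lower (88.9%) and 0 higher with TMM scaling, against 48.5% lower over all genes of the interior. With the trend removed 0 were lower and 4 higher (14.8%, against 17.1% over all genes). STX1A, which encodes the synaptic membrane fusion protein syntaxin 1A, had 110 and 116 CPM in its bin at 73700001 in the knockdown and 154 and 161 CPM in control. STX1A thus had a log2 fold change of -0.48 (SE 0.06, edgeR adjusted p = 7.11e-13), and -0.06 with the trend removed (adjusted p = 0.211). The bin of ELN, the elastin gene, and LIMK1, a kinase that acts on actin filaments, had 107 and 106 CPM in the knockdown and 137 and 143 CPM in control. That is a log2 fold change of -0.40, and 0.00 with the trend removed. ELN, RFC2, CLIP2 and GTF2IRD1 were the 4 genes with a higher bin once the trend was removed.

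Among 21 growth factor receptor, cell cycle and cancer genes with a listed bin, 12 were lower (57.1%, against 48.5% over all genes) and 0 higher with TMM scaling, and 2 were lower and 5 higher with the trend removed. The 2 that were lower under both scalings were CDK6 and TWIST1. CDK6 encodes a kinase that drives cells from G1 into S phase, and its bin at 92800001 had 23.8 and 24.4 CPM in the knockdown, against 30.5 and 31.7 CPM in the control libraries. Its log2 fold change was -0.37 (SE 0.06, edgeR adjusted p = 5.19e-07) and -0.28 with the trend removed (adjusted p = 0.000184). That bin holds the start of CDK6 and is 1 of 5 over the gene. Over all 5 bins the median was 0.16 and the highest 0.31 with TMM scaling, and none of the others passed. TWIST1, a transcription factor gene of the neural crest and mesenchyme, had 36.3 and 35.2 CPM in the knockdown and 40.7 and 48.1 CPM in control, a log2 fold change of -0.31, or -0.15 with the trend removed (adjusted p = 0.0287). EGFR, the epidermal growth factor receptor gene, had a lower bin with TMM scaling (log2 fold change -0.21) and a higher one with the trend removed. No bin of MET, BRAF, EZH2 or ETV1 passed under either scaling. The leading bin of MET had 6.08 and 6.46 CPM in the knockdown and 5.63 and 4.95 CPM in control (log2 fold change 0.25, edgeR adjusted p = 0.166).

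The 25 long neuronal and fragile site genes spanned 366 bins, of which 47 rose (12.8%) and 12 fell (3.28%) with TMM scaling, against 9.00% and 12.9% over all bins of the chromosome. With the trend removed 28 rose (7.65%) and 11 fell (3.01%), against 11.0% and 3.66%. The median log2 fold change of these bins was 0.13 with TMM scaling, or 0.09 without the trend, against 0.026 and 0.046 over the chromosome. By gene, 12 had higher bins alone, 7 lower bins alone and 3 both with TMM scaling. These bins are dim, with a median of 5.25 CPM in the knockdown and 4.81 CPM in control. ELMO1, which encodes an activator of Rac signalling, had 22.3 and 20.1 CPM at 36900001 in the knockdown and 16.4 and 16.0 CPM in control. For ELMO1 the log2 fold change was 0.39 (SE 0.07, edgeR adjusted p = 5.31e-06) and 0.42 with the trend removed. CALN1, which encodes a neuronal calcium-binding protein, rose by 0.43 at 72250001, and DGKI, a diacylglycerol kinase gene, by 0.48 at 137400001, both on the log2 scale and both past the test under both scalings.

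Of 32 zinc finger genes 20 were lower (62.5%, against 48.5% over all genes), 1 higher and 1 both with TMM scaling. With the trend removed 7 were lower (21.9%, against 11.9%) and 3 higher, and the median over their bins was -0.16 with TMM scaling and -0.05 without the trend. ZNF680 lies in a cluster of zinc finger repressor genes near the centromere, and the bin at 64450001 that covers its edge had 7.97 and 7.96 CPM in the knockdown, against 12.1 and 10.7 CPM in the control libraries. This bin had a log2 fold change of -0.52 (SE 0.10, edgeR adjusted p = 6.97e-06) and -0.53 with the trend removed. Of 11 imprinted genes 4 were lower (36.4%) and 0 higher with TMM scaling, a smaller share lower than over all genes. PPP1R9A, a neuronal actin-binding scaffold gene, was the one lower with the trend removed as well, at 5.14 and 4.78 CPM in the knockdown and 6.81 and 5.90 CPM in control (log2 fold change -0.36, edgeR adjusted p = 0.0322). PEG10, SGCE and MEST did not pass. None of 5 semaphorin and plexin genes passed with TMM scaling, whereas 10 of the 11 bins of PLXNA4, a receptor for axon guidance semaphorins, rose with the trend removed. Its leading bin had 70.0 and 67.8 CPM in the knockdown and 75.3 and 75.6 CPM in control, a log2 fold change of -0.13 with TMM scaling but 0.15 without the trend (edgeR adjusted p = 0.0025). With TMM scaling the 11 bins of PLXNA4 ran from -0.13 to 0.12 with a median of -0.01, so the gene was called with the trend removed alone.

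HNRNPA2B1, an RNA-binding protein gene that is itself linked to motor neuron disease, and TMEM106B, a modifier of frontotemporal dementia, did not pass under either scaling. HNRNPA2B1 had 30.9 and 30.9 CPM in the knockdown and 32.7 and 34.4 CPM in control in its leading bin (log2 fold change -0.12, edgeR adjusted p = 0.17). Of 18 taste and olfactory receptor genes with a listed bin, which are silent in most tissues, 2 were higher and 1 lower with TMM scaling, and none passed with the trend removed.

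Bins with a gene start held a larger share of lower calls than bins inside gene bodies, on chromosome 7 and on the other autosomes, and the difference between the classes was not tested. These classes were drawn up after values were seen and use the start sites of the RefSeq promoter table, which matched 708 protein-coding genes of the interior. With the trend removed, 42 of 549 start bins fell (7.65%) and 48 rose (8.74%), while 25 of 1152 body bins fell (2.17%) and 135 rose (11.7%). On the other autosomes 6.27% of start bins fell and 6.98% rose, and 2.46% of body bins fell and 9.43% rose. With TMM scaling 185 start bins of chromosome 7 fell and 19 rose, and 118 body bins fell and 121 rose. Start bins were brighter, at a median of 20.4 CPM in the knockdown and 21.1 CPM in control, against 8.68 CPM in the knockdown and 7.87 CPM in control for body bins. Bins were also split at control levels of 2.76, 4.97, 9.97 and 22.2 CPM. From low to high, 0.0%, 2.7%, 10.9%, 10.7% and 5.97% of start bins of chromosome 7 fell with the trend removed. Among body bins the shares were 0.84%, 0.781%, 1.99%, 2.97% and 3.75%. Above 22.2 CPM on the other autosomes 6.74% of start bins and 6.23% of body bins fell. The part of level in the difference between start and body bins was not tested.

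Within the long neuronal genes the start bin stood below the body. Of 21 genes with a listed start bin, 18 had a lower log2 fold change there than the median of their body bins with the trend removed, and 19 with TMM scaling. The start site of the RefSeq promoter table lay in the bin at the outer end of the annotated gene body for 15 of the 21, and further inside for 6. At the outer end 14 of 15 start bins lay below the body with the trend removed, and 4 of the 6 inside did. CNTNAP2 encodes a neurexin-like adhesion protein at axons and is among the longest human genes. Its start bin, which holds the promoter shown above, had 851 and 1050 contacts in the knockdown libraries and 1501 and 1509 in the control libraries. The levels were 7.05 ± 0.0216 CPM in the knockdown and 9.80 ± 0.0113 CPM in control (SD, n = 2 each), without overlap. The start bin had a log2 fold change of -0.48 (SE 0.10, edgeR adjusted p = 0.000122) and -0.51 with the trend removed, while its 42 body bins had medians of 0.08 and 0.03.

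MAGI2, a synaptic scaffold gene, had 17.6 and 17.7 CPM in its start bin in the knockdown and 22.1 and 21.9 CPM in control (log2 fold change -0.31, edgeR adjusted p = 0.000194; -0.27 with the trend removed). KCND2, a potassium channel gene of dendrites, had 6.88 and 7.31 CPM in the knockdown and 8.75 and 8.97 CPM in control (log2 fold change -0.32, edgeR adjusted p = 0.0205; -0.35 with the trend removed). THSD7A was the fourth gene with a lower start bin under both scalings, at -0.30 and -0.33. HDAC9 and ELMO1 had start bins that rose under both scalings, but both start sites lie inside the gene body, away from its outer end. The bin at the outer end had a log2 fold change of -0.10 for HDAC9 and 0.14 for ELMO1 with the trend removed. The 4 lower start bins all lie at the outer end, and these 4 and the 2 higher ones stood beside body bins that mostly did not change, of which 26 of 341 rose and 6 fell with the trend removed.

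**Figure D5:**
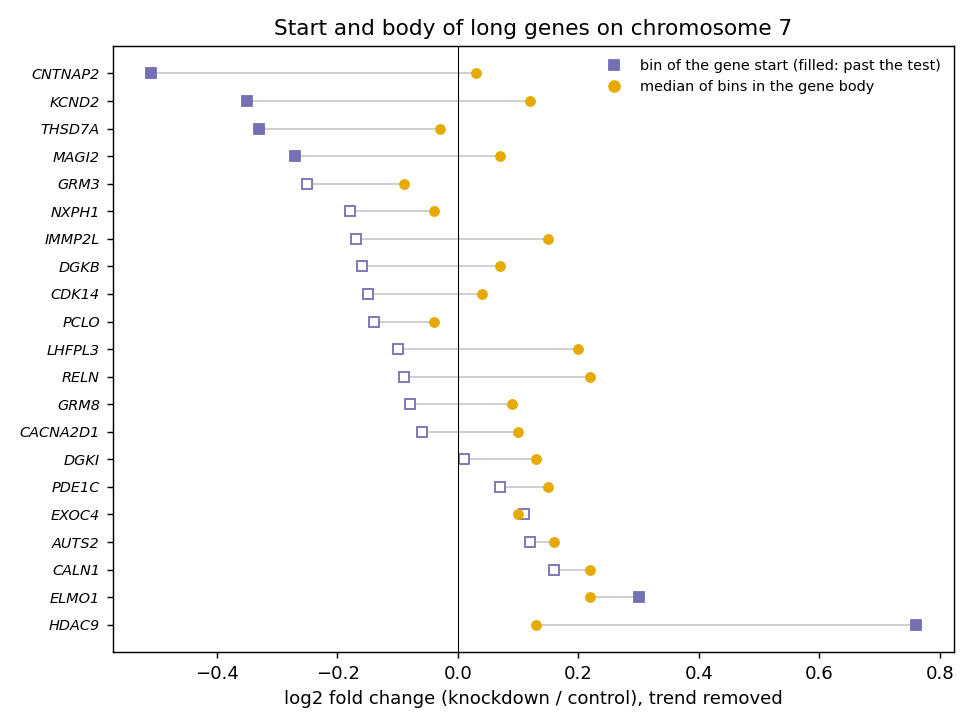
Log2 fold change (knockdown over control, abundance trend removed) of the bin at the gene start (squares, filled where past an adjusted p of 0.05) and the median of the bins in the gene body (circles) for 21 long neuronal genes of chromosome 7. In 18 of them the square lies left of the circle, from CNTNAP2 at -0.51; HDAC9, at 0.76, lies furthest to the right.

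Promoter composition differed between bins that rose and bins that fell with TMM scaling, and not in the same way with the trend removed. The 21 promoters in bins that rose had a median of 44.3% GC and 3 CG dinucleotides, like the HDAC9 and CYP3A7 sequences above. The 289 promoters in bins that fell had 65.7% GC and 25 CG, between the CNTNAP2 sequence and those of CDK6 and BHLHA15. All 708 matched promoters of the interior had medians of 63.0% and 22. With the trend removed the 65 promoters in bins that rose had 64.3% and 24, and the 59 in bins that fell had 66.7% and 21. The letters TGTGTG, searched on both strands because TDP-43 binds TG repeats, occurred in 33.3% of the 21 promoters in bins that rose with TMM scaling, which is 7 promoters, and in 16.6% of those in bins that fell. CYP3A7 and CYP3A7-CYP3A51P share 1 start site among the 7 and CYP3A4 lies in the next bin, so the count by distinct start site, an alternative chosen after seeing the data, was 6 of 20. The share was 16.5% over the interior of chromosome 7 and 14.5% over all 15812 promoters of the table. With the trend removed it was 18.5% in bins that rose and 22.0% in bins that fell. Of the 59 promoters in bins that fell, 15 belong to LOC genes in 2 bins near the centromere, at 56800001 and 63750001, and hold 5 of the 13 matches, and the share without them, also chosen after seeing the data, was 18.2%. Both the CYP3A7 and the CNTNAP2 promoter hold these letters, one in a bin that rose and one in a bin that fell. A match in the letters is a description and not a binding site.

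Contacts between adjoining bins did not have the balance of the contacts inside bins under either scaling. Of 1139 listed pairs of adjoining bins on chromosome 7, 34 rose and 44 fell with the trend removed, against 4.98% and 5.97% of all listed pairs, while within bins 300 rose and 100 fell. With TMM scaling 89 rose and 57 fell, against 5.76% and 10.5% of all listed pairs, while within bins 246 rose and 353 fell. Of the 89239 listed pairs 48992 are themselves within-bin entries, so those shares are not shares of adjoining pairs. Calls among adjoining pairs of the other autosomes were not counted here. Where both bins of a pair rose with the trend removed, the 114 contacts between them had a median log2 fold change of 0.21, with 10 higher and 0 lower. Where both bins fell, the 6 contacts between them had a median of -0.42, with 3 lower and 0 higher. Where neither changed, 696 contacts had a median of 0.03. The pairs were sorted by calls in the same libraries, so the shift is a description of how far the blocks extend beyond single bins.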

How the data were processed

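Micro-C contacts were measured in 2 TDP-43 knockdown and 2 control libraries of SH-SY5Y cells, assigned to groups by their titles. Per the submitters' processing notes the authors worked on hg38 with HiC-Pro, and neither has a version there. The deposited table holds raw contact counts per library for pairs of 50 kb bins. Per the file headers it also holds the authors' fold change and mean abundance on the log2 scale, an F statistic (a score), a p-value and the p-value after adjustment. Pairs below a mean abundance of -0.01 (log2) are not in the table, so its totals are not the full depth. The smallest total count of a pair was 868.

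Counts of all 89239 pairs were fitted with edgeR 4.0.16 (R 4.3.3, limma 3.58.1, TMM scaling, glmQLFit and glmQLFTest, Benjamini-Hochberg adjustment over all pairs, threshold 0.05), and filterByExpr removed 0 pairs. TMM factors were 1.05 and 1.04 for the knockdown and 0.966 and 0.944 for the control libraries, and the common dispersion was 0.00812. Alternatives were per-library loess offsets that remove the abundance trend, DESeq2 1.42.0, within-bin entries only, each library left out in turn, a replicate block, no filter, the authors' deposited values and a threshold of 0.01. Scripts were tested on simulated data. Library numbers do not pair the samples: deviations of same-numbered libraries correlated at 0.0214.

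Genes and promoters came from RefSeq GRCh38.p14, with 829 protein-coding genes on the interior. Long unlisted runs are those of 1 Mb or more without a listed bin. An unlisted position outside them was ranked below every listed one. The 9 lists held 159 genes. Named regions were the 10 largest increases and 10 largest decreases past the threshold whose libraries did not overlap, adjoining bins of one direction counting as 1 region, with the 5 brightest and 5 dimmest bins and up to 6 genes per list. Genes given as not passing, the blocks along the arms and the start-site classes fall outside that rule. A region and a gene that the rule names are not reported here. The members and lists were chosen with earlier results of these data known. GC content of bins was not analysed here, since no genome was used. Tables and figures were made in Python 3.11.15 with matplotlib 3.10.9, pandas 2.3.3, scipy 1.17.1 and numpy 2.4.6.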

Additional observations from a re-analysis of the deposited data

How the results depend on the processing

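The count of 599 differing bins was 400 with the trend removed (75.0% higher, against 41.1%), 404 in the authors' deposited table (75.0% higher), 450 with DESeq2 (28.9% higher), 684 with within-bin entries alone (48.2% higher) and 375 at the 0.01 threshold (30.1% higher). It was 587 without bins within 2 Mb of the centromere and 599 without the filter. With the replicate number as a block it was 664, and the block changed no call among the 20 named regions. With a library left out it ran from 193 to 703; it was 193 without knockdown library 1 and 267 without knockdown library 2, fits that leave 1 knockdown library, assumed to vary like the control libraries. On the short arm 213 bins differed, 127 at the 0.01 threshold and 62 to 250 with a library left out (62 without knockdown library 1, 89 without knockdown library 2). On the long arm 386 differed, 249 with the trend removed, 251 in the authors' deposited table, 248 at the 0.01 threshold and 131 to 453 with a library left out (131 without knockdown library 1, 178 without knockdown library 2). Of the 20 named regions 14 kept their call with the trend removed, 17 with DESeq2, 12 without knockdown library 1 and 13 without knockdown library 2, 16 without control library 1 and 18 without control library 2. No direction turned in these fits.

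The control level ratio of 1.18 was 1.22 by the mean, 1.29 without chromosomes 1, 2 and 17, 1.44 in gene-free bins, 1.20 weighted by gene count, 1.38 over all positions and 1.01 for adjoining pairs, and it turned to 0.992 in gene-bearing bins. Weighting, all positions and the gene-free share were chosen after seeing the data. Bins of like GC content were not run. The difference in share of -0.145 points was -0.228 without chromosomes 1, 2 and 17, -0.153 to -0.137 with a library left out, and 0.00289 in gene-free bins; the cause was not tested. With 2 libraries a group, the number of libraries limits what can be called, and bins below the listing threshold were not analysed here.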
